A study of Mus musculus with 16 samples.

Results

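The HoxC cluster is the run of 9 Hox genes, Hoxc13, Hoxc12, Hoxc11, Hoxc10, Hoxc9, Hoxc8, Hoxc6, Hoxc5 and Hoxc4, on mouse chromosome 15. These are 9 of the 22232 protein-coding gene names in the GENCODE M1 annotation of mm9, and they were chosen by name, with no measured value. All called peaks were collected that touched the span of the genes with 2500 bp added at each end (mm9, chr15:102749034-102869774, 120741 bp), and, for each gene, those with at least 1 base no more than 2500 bp away from where a coding transcript begins (its promoter window). The peaks came from 10 ChIP-seq lists, each from 1 library. H2AK119ub1 and H3K27me3 were mapped in wild type and PCGF5-depleted ES cells (mouse embryonic stem cells) and in the NPC (neural progenitor cells) made from both by day 6 of differentiation in suspension. Flag-PCGF5 was mapped in wild type ES cells and NPC whose own Pcgf5 gene carries a 3-fold Flag tag, and those cells were otherwise not depleted. The ES cells were of the 46C line, in which GFP reports Sox1. They were grown with LIF and 2 kinase inhibitors on feeder cells, which can carry into an ES library, while NPC were made without feeders. The labels give the genotype of the depleted cells as shPCGF5, and the methods describe lentiviral short hairpin RNA in lines grown from picked clones, so the depleted cells may be few clones and keep some PCGF5.

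Hox genes encode homeodomain transcription factors that give cells their position along the body axis. They lie in the cluster in the order in which they are used, from Hoxc4, expressed farthest forward, to Hoxc13, expressed at the tail end. In cells that do not use them they are textbook targets of Polycomb repression. Polycomb repressive complex PRC1 places ubiquitin on a lysine of histone H2A (H2AK119ub1), and PRC2 places methyl groups on a lysine of histone H3 (H3K27me3). PCGF5 is a subunit of a variant form of PRC1.

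The cluster held few and short peaks of both marks in ES cells and was mostly covered by them in wild type NPC. In wild type ES, 19 H2AK119ub1 peaks covered 4.68% of the span and 15 H3K27me3 peaks covered 3.47%. In wild type NPC, 106 H2AK119ub1 peaks covered 70.6% and 61 H3K27me3 peaks covered 84.8%. In PCGF5-depleted NPC the 2 marks parted, with 9.43% of the span under 48 H2AK119ub1 peaks and 70.7% under 82 H3K27me3 peaks. With 1 library per group none of these differences has a replicate check or a test. Sequencing depth is not known, and each library had its peaks called on its own, so covered length can follow depth or background too.

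**Figure D1:**
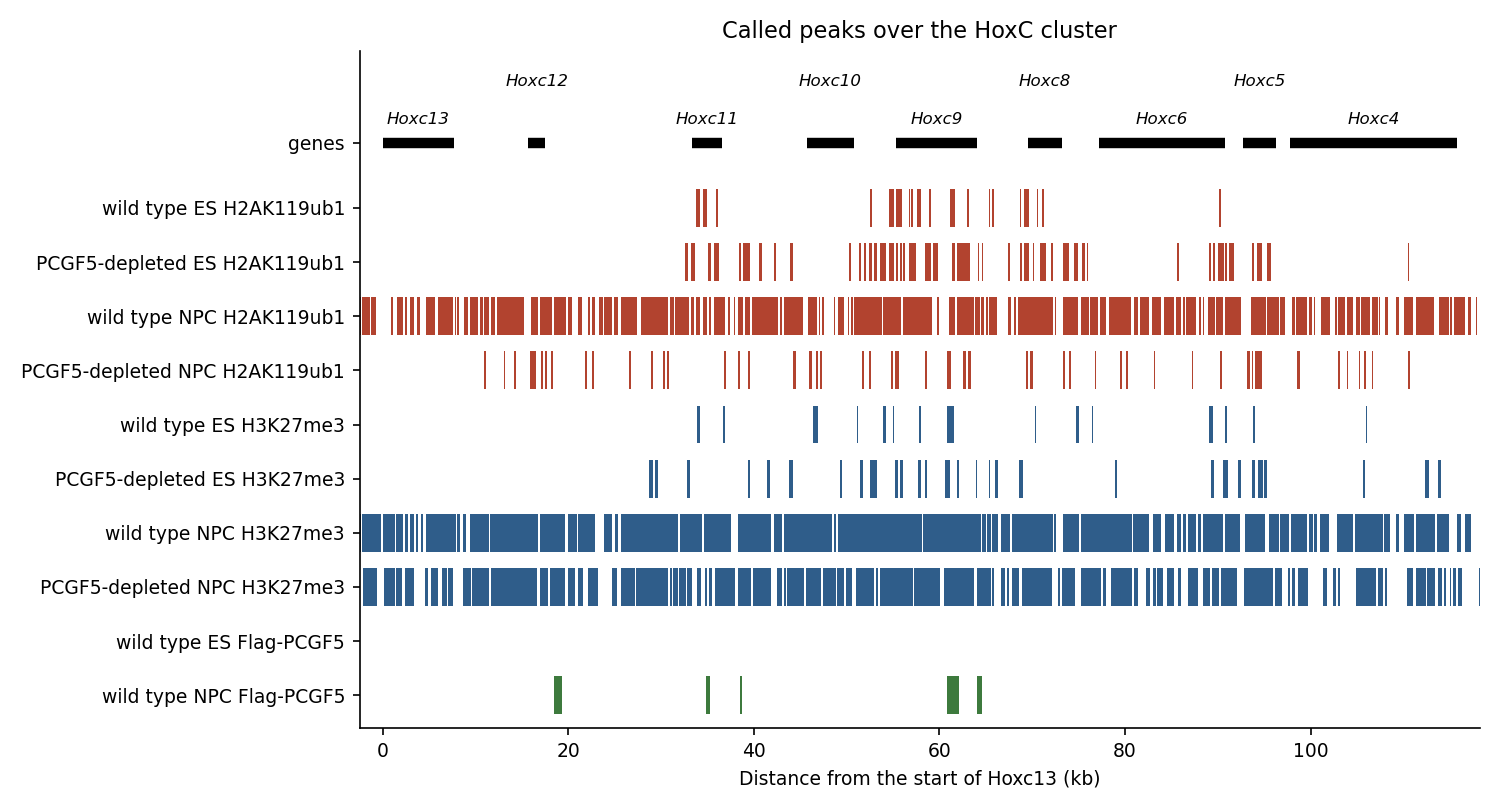
Map of the peaks over the HoxC span, with the distance from the start of Hoxc13 in kb on the x axis, the 9 gene bodies as black bars and 1 row for each of the 10 lists, where each box is a called peak. Peaks run from end to end, with gaps, in both wild type NPC rows (70.6% of the span for H2AK119ub1, 84.8% for H3K27me3). The H3K27me3 row of PCGF5-depleted NPC is similar (70.7%). The H2AK119ub1 row of PCGF5-depleted NPC holds 48 narrow peaks, and the ES rows are empty over Hoxc13 and Hoxc12.

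Several stretches show what lies under the peaks of the cluster, on the plus strand of mm9, which is also the strand of all 9 genes. Capitals mark CpG (the letters CG, which read the same on both strands), the dinucleotide that Polycomb-marked promoters are usually rich in. The first is the whole Flag-PCGF5 peak of highest fold in the span, which lies between Hoxc11 and Hoxc10, in no gene, at chr15:102790065-102790277. The second is 1 of 2 H2AK119ub1 peaks tied for the highest fold in wild type ES, in an intron of Hoxc9 at chr15:102808216-102808369. The third is the stretch shared by the highest-fold peaks of both marks in PCGF5-depleted ES, in the same intron at chr15:102809999-102810231. The fourth is the middle of the highest-fold peak of both marks in wild type NPC, in an intron of Hoxc4 at chr15:102861966-102862215. The fifth is the 250 bases before the start of Hoxc13, chr15:102751284-102751533, where wild type NPC had H3K27me3 and no H2AK119ub1 peak.
Flag-PCGF5, wild type NPC: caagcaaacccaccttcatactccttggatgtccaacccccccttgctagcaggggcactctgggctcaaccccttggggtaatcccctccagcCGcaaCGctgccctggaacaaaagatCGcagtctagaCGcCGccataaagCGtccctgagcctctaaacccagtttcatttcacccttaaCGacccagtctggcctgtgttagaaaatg
H2AK119ub1, wild type ES: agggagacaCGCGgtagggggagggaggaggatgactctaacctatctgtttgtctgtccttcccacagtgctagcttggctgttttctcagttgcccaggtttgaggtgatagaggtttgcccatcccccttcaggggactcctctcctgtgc
both marks, PCGF5-depleted ES: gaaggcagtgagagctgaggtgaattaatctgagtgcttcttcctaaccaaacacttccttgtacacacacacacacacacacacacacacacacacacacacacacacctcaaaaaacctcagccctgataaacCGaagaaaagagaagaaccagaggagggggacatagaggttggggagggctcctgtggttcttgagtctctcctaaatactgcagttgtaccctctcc
both marks, wild type NPC: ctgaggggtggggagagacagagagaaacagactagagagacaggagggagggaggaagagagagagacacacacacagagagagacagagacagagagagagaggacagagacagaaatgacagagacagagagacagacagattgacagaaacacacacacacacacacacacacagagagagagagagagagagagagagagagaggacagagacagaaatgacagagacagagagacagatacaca
before the Hoxc13 start: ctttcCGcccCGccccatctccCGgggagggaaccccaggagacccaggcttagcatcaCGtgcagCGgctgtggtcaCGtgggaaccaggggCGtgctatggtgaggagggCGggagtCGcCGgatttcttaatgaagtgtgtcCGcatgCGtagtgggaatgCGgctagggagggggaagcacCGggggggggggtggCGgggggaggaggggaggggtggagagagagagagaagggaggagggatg

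These sequences differ in kind. The Flag-PCGF5 peak had 7 CpG and the bases before Hoxc13 had 15, which is 3.29 and 6.00 per 100 bp against 2.11 over the whole span. The other 3 held 2, 1 and 0 CpG in the order shown. The third holds an unbroken run of 46 bases of a repeated CA pair, and the fourth several runs of CA and GA pairs, the longest of 31 bases. Of non-overlapping windows of the same length along the span, between 75.4% (154 bp) and 85.7% (250 bp) held at least 1 CpG. The highest folds of both marks in PCGF5-depleted ES and in wild type NPC thus lay on simple repeats, where short reads are hard to place, and the part of the repeats in those folds was not tested.

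The span held 32 dinucleotide tracts of 20 bases or more (adjoining ones joined), and 10.2% of its bases lay within 200 bp of 1 of them. Peaks near a tract had a higher median fold than the other peaks of the span in each of the 7 histone lists that had any. A peak counted as near if any of its bases was, so wider peaks counted more readily, and width was not matched. For H2AK119ub1 in wild type ES only 3 peaks were near a tract. In wild type NPC the medians were 6.34 against 5.01 for H2AK119ub1 and 7.46 against 5.47 for H3K27me3. The share of covered bases near a tract was 10.9% for H2AK119ub1 and 10.6% for H3K27me3 in wild type NPC, close to the 10.2% of the span, and 22.7% for H2AK119ub1 in PCGF5-depleted NPC. For Flag-PCGF5 in NPC it was 15.4%, with 2 peaks near a tract and 3 not, at median folds of 2.58 and 2.50. The Flag-PCGF5 peak shown above was among those near a tract. With the bases near tracts left out, the 8 ratios of covered length between lists kept their direction.

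The first comparison asked how both marks stood over the cluster in ES cells. The H2AK119ub1 peaks of wild type ES had a median width of 230 bp (139 to 615 bp) and a median fold enrichment over background of 4.30 (3.21 to 6.45). Those of H3K27me3 had a median width of 200 bp (152 to 669 bp) and a median fold of 4.56 (3.50 to 5.09). H2AK119ub1 lay mostly in the middle of the cluster, while H3K27me3 was spread more evenly, with 1089, 1612 and 1487 bp in the tail-end, middle and forward parts. In wild type ES, H2AK119ub1 covered 19.2% of the stretch from the end of Hoxc10 to the end of Hoxc8, 2.14% of the stretch from Hoxc13 through Hoxc10 and 0.47% of the stretch from Hoxc6 through Hoxc4. H3K27me3 covered 7.20%, 2.04% and 3.30% of these stretches. The end that holds the tail-most genes was empty. No H2AK119ub1 peak lay in the first 36.2 kb of the span and no H3K27me3 peak in the first 36.3 kb, which takes in Hoxc13, Hoxc12 and the start of Hoxc11. In PCGF5-depleted ES the empty end was 35.1 kb and 31.2 kb long.

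The 2 marks shared a minority of their bases in ES cells, though more than the share of the span that each covered. In wild type ES, 976 bp were under peaks of both, which is 17.3% of the H2AK119ub1 bases and 23.3% of the H3K27me3 bases. Over the span H3K27me3 covered 3.47% and H2AK119ub1 4.68%. In PCGF5-depleted ES the marks shared 3395 bp, 19.6% of the H2AK119ub1 bases and 34.7% of the H3K27me3 bases. Over the span H3K27me3 covered 8.10% and H2AK119ub1 14.4% there.

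The bases that were covered in ES cells held more CpG per 100 bp than the span. In wild type ES, the covered bases held 4.63 CpG per 100 bp for H3K27me3 and 3.71 for H2AK119ub1, against 2.11 over the span. In PCGF5-depleted ES these were 3.11 and 2.43. The covered H2AK119ub1 bases there were also richer in G and C (54.0% against 49.0% of the span). Their CpG count over that expected from G and C content was 0.335, against 0.352 for the span. That value was 0.432 for H3K27me3 in depleted ES, and 0.449 for H2AK119ub1 and 0.527 for H3K27me3 in wild type ES.

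In ES cells the span had more covered length in the PCGF5-depleted library than in the wild type one for both marks. For H2AK119ub1 it was 17365 bp (46 peaks, median fold 4.20) against 5654 bp (19 peaks, median fold 4.30), a log2 ratio of 1.62. For H3K27me3 it was 9781 bp (29 peaks, median fold 5.07) against 4188 bp (15 peaks, median fold 4.56), a log2 ratio of 1.22, which was 0.53 with the higher-scoring 50% of each list. The whole lists were shorter in depleted ES, with log2 ratios of -0.25 and -0.17. In the same comparison the H3K27me3 log2 ratios of the HoxA, HoxB and HoxD spans were -0.20, -0.18 and 0.29, and those of H2AK119ub1 were 0.28, 1.02 and 0.88. In the lists as deposited HoxC had the highest ratio of the 4 clusters for both marks, and other settings were not run for the other clusters. It also had the least covered share of the 4 clusters in wild type ES. Of the H2AK119ub1 bases of wild type ES 57.8% were also covered in depleted ES, while of the H3K27me3 bases 24.5% were.

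The second comparison followed the cluster from ES cells to NPC. In wild type cells the covered length was 85290 bp in NPC against 5654 bp in ES for H2AK119ub1 (log2 ratio 3.92) and 102439 bp against 4188 bp for H3K27me3 (log2 ratio 4.61). The whole lists gave -0.09 and 1.16. The HoxA, HoxB and HoxD spans lay between 1.97 and 2.45 for H2AK119ub1 and between 2.47 and 2.69 for H3K27me3. The peaks were also longer, with a median width of 545.5 bp for H2AK119ub1 and 1023 bp for H3K27me3, and 29 of the 106 and 32 of the 61 were at least 1000 bp long. In the whole lists 6.71% and 24.6% of the peaks were that long. The median folds were 5.23 and 6.05.

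Both marks of wild type NPC ran through genes and the stretches between them alike. H2AK119ub1 covered 69.2%, 75.8% and 69.8% of the tail-end, middle and forward stretches, and H3K27me3 covered 86.4%, 92.5% and 79.2%. The longest stretch with no peak was 1.66 kb for H2AK119ub1, over the start of Hoxc13, and 0.93 kb for H3K27me3, between Hoxc12 and Hoxc11. The widest H3K27me3 peak (9068 bp, chr15:102800579-102809646, fold 10.5) ran from within Hoxc10 over Mir196a-2 into Hoxc9. The widest H2AK119ub1 peak (3695 bp, chr15:102820028-102823722, fold 6.00) lay over Hoxc8. Peaks of H3K27me3 lay over 94.1% of the H2AK119ub1 bases, and H2AK119ub1 over 78.3% of the H3K27me3 bases.

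Coverage was much lower just outside. In the 100 kb before the span 7.11% was under H2AK119ub1 peaks and 8.78% under H3K27me3 peaks in wild type NPC, and in the 100 kb after it 8.15% and 12.4%. The nearest protein-coding genes on each side, Calcoco1 (a transcriptional coactivator and autophagy receptor) and Smug1 (a uracil-DNA glycosylase), had no histone peak at their promoters in any list.

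The third comparison set PCGF5-depleted NPC beside wild type NPC, which addresses how each mark stood when PCGF5 was depleted. H2AK119ub1 covered 11385 bp in the depleted library and 85290 bp in the wild type one, a log2 ratio of -2.91. The depleted list as a whole was shorter, with a log2 ratio of -1.05, and the HoxA, HoxB and HoxD spans gave -2.07, -2.43 and -2.08. With the same number of top peaks taken from both lists the HoxC ratio was -2.80. The 48 peaks there had a median width of 216.5 bp, at most 797 bp, and a median fold of 4.93 against 5.23 for the 106 peaks of wild type NPC. The median folds of the whole lists were 4.91 in depleted and 4.35 in wild type NPC. Ranked by p-value within their own list, the 48 peaks stood at a median percentile of 39.8 and the 106 at 79.9, where higher is stronger. The 48 peaks were spread over the cluster, with 8.58%, 13.4% and 8.47% of the tail-end, middle and forward stretches covered. Of their bases 88.2% were also covered in wild type NPC.

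H3K27me3 covered 85424 bp in PCGF5-depleted NPC and 102439 bp in wild type NPC, a log2 ratio of -0.26, where the whole lists gave -0.24 and the other 3 clusters lay between -0.31 and -0.15. The number of peaks was higher in the depleted library (82 against 61), and their median width was lower (708.5 against 1023 bp), as was the median fold (5.04 against 6.05). Of the bases covered in depleted NPC 93.7% were covered in wild type NPC. The gap was wider over the forward stretch from Hoxc6 through Hoxc4 (59.4% against 79.2%) than over the tail-end stretch (75.5% against 86.4%).

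In PCGF5-depleted NPC the 48 H2AK119ub1 peaks mostly lay within the H3K27me3 peaks of the same cells. H3K27me3 covered 94.7% of their bases, close to the 94.1% of wild type NPC, while H2AK119ub1 covered 12.6% of the H3K27me3 bases against 78.3%. Their bases held 4.09 CpG per 100 bp, while those covered by H2AK119ub1 in wild type NPC held 2.04.

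The fourth comparison, of NPC with ES cells in the PCGF5-depleted line, gave opposite signs for the marks. The log2 ratio of covered length was 3.13 for H3K27me3 and -0.61 for H2AK119ub1. The HoxC value for H2AK119ub1 turned to 0.076 with the same number of top peaks taken from both lists. The number of peaks in the HoxC span was nearly equal (48 in NPC and 46 in ES). Most of the covered bases differed, though both shared parts were above the covered share of the span. Of the H2AK119ub1 bases of depleted NPC 28.5% were covered in depleted ES, whose peaks covered 14.4% of the span. Of those of depleted ES 18.7% were covered in depleted NPC, whose peaks covered 9.43% of the span.

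**Figure D2:**
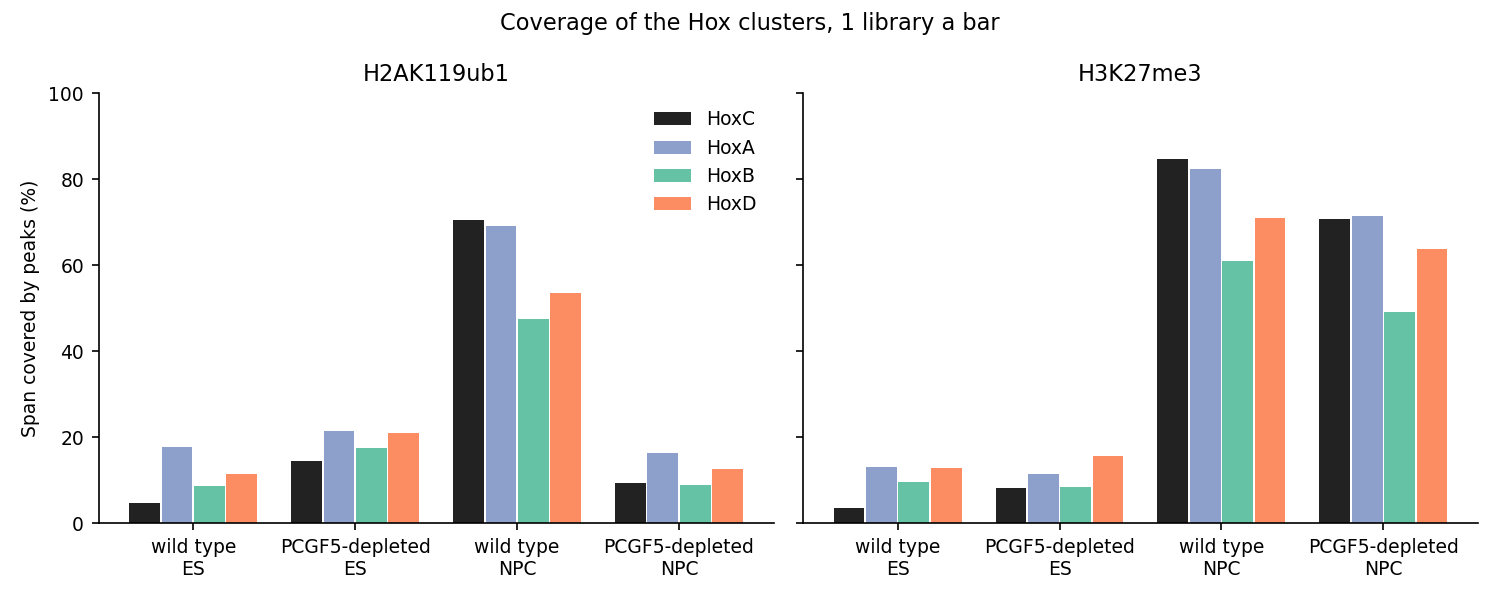
Share of the span of each Hox cluster covered by peaks (%, y axis) in the 4 kinds of cells, with H2AK119ub1 on the left and H3K27me3 on the right and 1 library behind each bar. HoxC is the lowest bar in wild type ES (4.68% and 3.47%) and the highest in wild type NPC (70.6% and 84.8%).

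**Figure D3:**
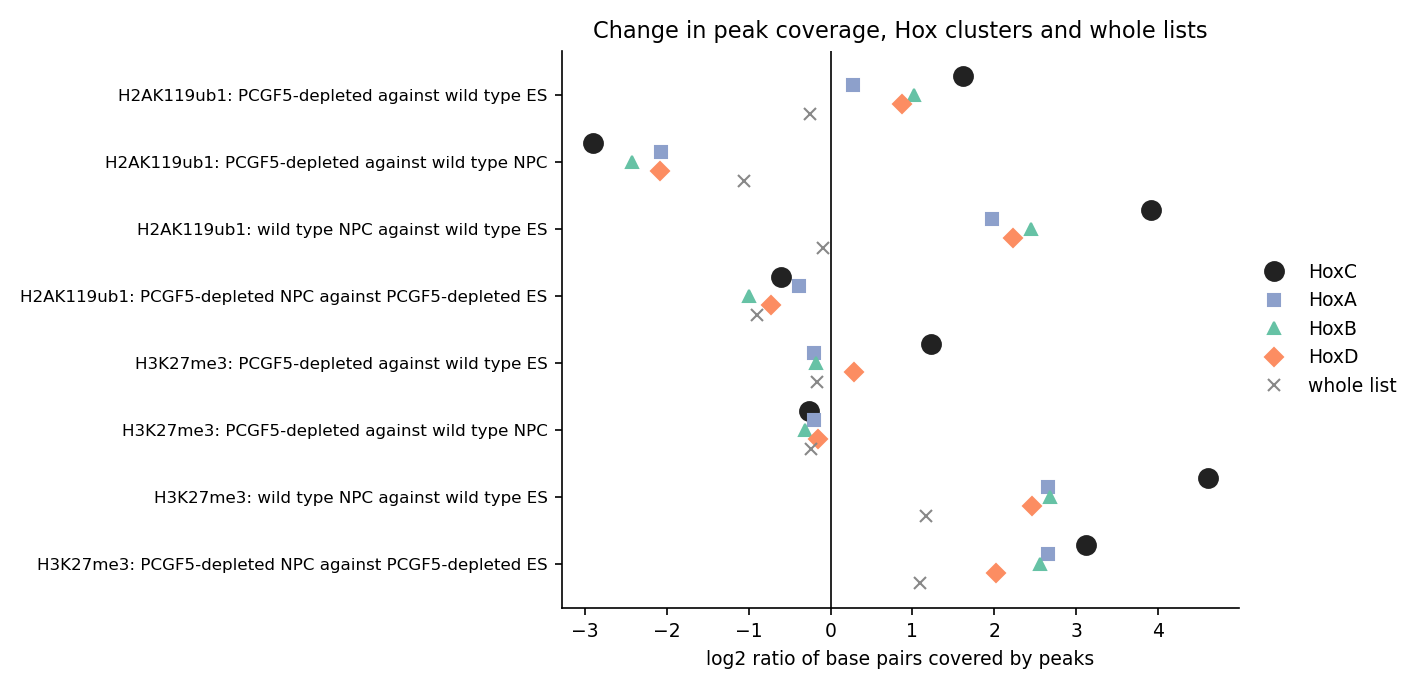
The log2 ratio of covered base pairs (x axis) for both marks in the 4 comparisons, with 1 point for each Hox cluster and a cross for the whole list. HoxC lies farthest from 0 in both comparisons of wild type NPC with wild type ES (3.92 and 4.61) and, for H2AK119ub1, in PCGF5-depleted against wild type NPC (-2.91).

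**Figure D4:**
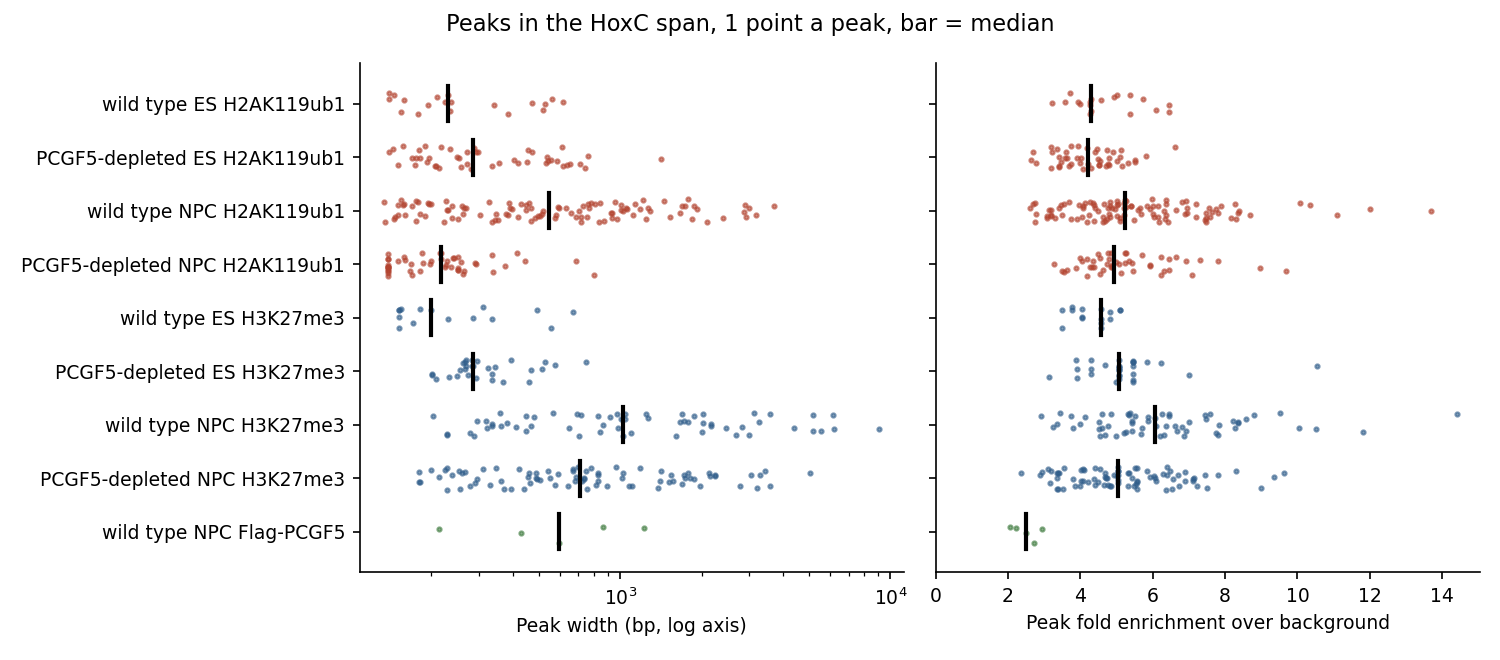
Width in bp on a log axis (left) and fold enrichment over background (right) of each peak in the span, 1 point a peak, with the median of each list as a bar. H3K27me3 peaks of wild type NPC reach 9068 bp, and no H2AK119ub1 peak of PCGF5-depleted NPC is wider than 797 bp.

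Of the 9 promoters, H2AK119ub1 peaks reached 5 in wild type ES and 7 in PCGF5-depleted ES. They reached 9 in wild type NPC and 8 in PCGF5-depleted NPC. Of all protein-coding genes 6.82%, 6.05%, 5.04% and 4.22% were reached in these lists. For H3K27me3 the counts were 6, 7, 9 and 9, where 13.5%, 13.0%, 15.9% and 15.6% of all genes were reached. In wild type ES, H2AK119ub1 reached 10 of 11 HoxA, 8 of 10 HoxB and 8 of 9 HoxD promoters. H3K27me3 reached 10 of 11, 9 of 10 and 9 of 9 there, so HoxC had the smallest share for both marks. The promoters of the 12 genes of Hox partners and upstream regulators (Pbx, Meis, Pknox and Cdx genes, whose products bind DNA with Hox proteins or act above them) were reached in 2 to 4 cases for H2AK119ub1 and in 3 to 7 for H3K27me3.

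A promoter counted as changed when its covered length differed by 2-fold or more between lists. In PCGF5-depleted against wild type NPC, H2AK119ub1 was lower at 9 of 9 promoters and higher at 0. Of all promoters with a peak in either list 51.8% were lower and 28.8% higher. The other Hox clusters were alike, with H2AK119ub1 lower at 10 of 11 HoxA, 9 of 10 HoxB and 8 of 9 HoxD promoters. H3K27me3 was past 2-fold at none of the 9, nor at any HoxA, HoxB or HoxD promoter, against 33.4% lower and 22.9% higher among all. In wild type NPC against wild type ES, H2AK119ub1 was higher at 9 of 9 (35.4% of all higher, 50.9% lower), and so was H3K27me3 (60.2% higher, 21.1% lower). At HoxA, HoxB and HoxD, H2AK119ub1 was higher at 10 of 11, 8 of 10 and 7 of 9. There H3K27me3 was higher at 11 of 11, 9 of 10 and 9 of 9.

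In PCGF5-depleted NPC against PCGF5-depleted ES, H3K27me3 was again higher at 9 of 9 (57.2% higher, 19.5% lower). It was also higher at 11 of 11 HoxA, 10 of 10 HoxB and 8 of 9 HoxD promoters. At HoxC, H2AK119ub1 was lower at 4 and higher at 2 of the 8 that had a peak (54.5% lower, 26.5% higher). That balance depended on the window, since with windows of 1000 bp it was lower at 1 and higher at 5, and at 3-fold lower at 2 and higher at 2. In PCGF5-depleted against wild type ES, H2AK119ub1 was higher at 4 and lower at 0 of 7 (33.6% higher, 43.2% lower), and H3K27me3 likewise at 4 and 0 of 7 (27.7% higher, 34.5% lower). These counts were also not firm. With windows of 1000 bp, H2AK119ub1 was higher at 2 and H3K27me3 lower at 1, and at 3-fold H3K27me3 was higher at 2.

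**Figure D5:**
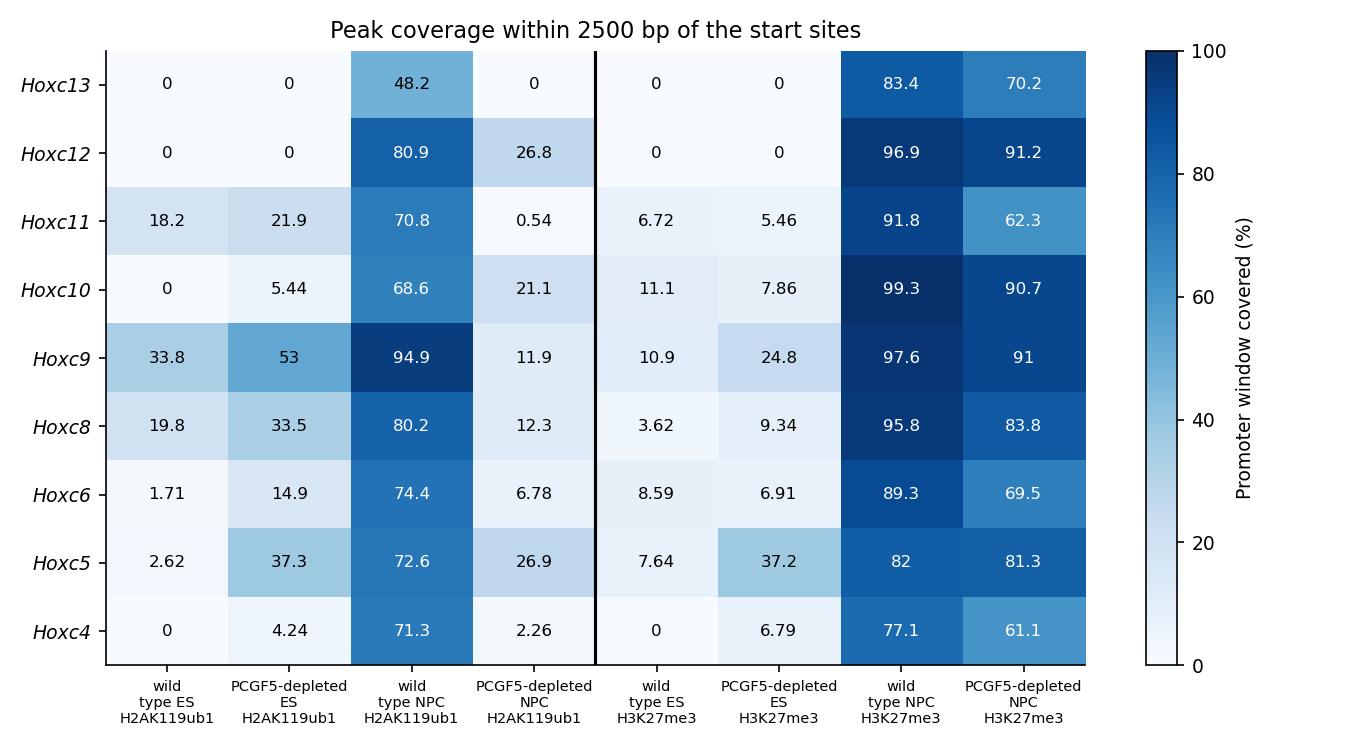
Share of each promoter window covered by peaks (%, colour and printed number), with the 9 genes in their order along the chromosome as rows and the 8 histone lists as columns. The third column is dark and the fourth pale (H2AK119ub1, wild type and PCGF5-depleted NPC), while both of the last 2 columns are dark (H3K27me3 in NPC, at least 61.1%).

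Hoxc13, which acts in hair and nails and at the tail end of the axis, was bare of both marks in both ES libraries. As NPC, the wild type cells had 48.2% of its window under H2AK119ub1, the lowest of the 9, and 83.4% under H3K27me3. In depleted NPC it had no H2AK119ub1 peak, the only member with none, and 70.2% under H3K27me3.

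Hoxc12 was likewise bare in ES cells. H2AK119ub1 covered 80.9% of its window and H3K27me3 96.9% in wild type NPC. In depleted NPC these were 26.8% and 91.2%. Its gene body was the member body with the most H2AK119ub1 in depleted NPC (47.6%).

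Hoxc11 and Hoxc10, patterning genes of the hindlimb and lumbar levels, differed from each other in ES cells. Hoxc11 had 18.2% of its window under H2AK119ub1 in wild type ES, 21.9% in depleted ES, 70.8% in wild type NPC and 0.54% in depleted NPC. Hoxc10 had 0%, 5.44%, 68.6% and 21.1% in the same order. For H3K27me3, Hoxc11 had 6.72%, 5.46%, 91.8% and 62.3%, and Hoxc10 had 11.1%, 7.86%, 99.3% and 90.7%. Hoxc10 in wild type NPC was the most fully covered promoter of the cluster.

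Hoxc9, a thoracic-level gene, had the most H2AK119ub1 in 3 of the 4 lists. Its window was covered to 33.8% in wild type ES, 53.0% in depleted ES and 94.9% in wild type NPC, and to 11.9% in depleted NPC, where Hoxc5 had the most (26.9%). Its H3K27me3 coverage was 10.9%, 24.8%, 97.6% and 91.0%. Both ES peaks shown above from its intron lie under peaks of both marks in wild type NPC.

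Hoxc8, also a thoracic gene, had 19.8%, 33.5%, 80.2% and 12.3% of its window under H2AK119ub1, and 3.62%, 9.34%, 95.8% and 83.8% under H3K27me3. Like Hoxc9 it had far less H2AK119ub1 coverage in the depleted than in the wild type NPC library, and nearly as much H3K27me3 coverage.

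Hoxc6, Hoxc5 and Hoxc4, the genes of the cluster used farthest forward, had little H2AK119ub1 in wild type ES, at 1.71%, 2.62% and 0%. In depleted ES they had 14.9%, 37.3% and 4.24%, in wild type NPC 74.4%, 72.6% and 71.3%, and in depleted NPC 6.78%, 26.9% and 2.26%. The windows of Hoxc6 and Hoxc5 share 665 bp, so that these 2 are not fully separate.

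The H3K27me3 coverage of Hoxc6 was 8.59%, 6.91%, 89.3% and 69.5%, and that of Hoxc5 was 7.64%, 37.2%, 82.0% and 81.3%. Hoxc4 had 0%, 6.79%, 77.1% and 61.1%, the lowest of the 9 in both NPC lists. Hoxc4 holds the peaks with the top folds of the wild type NPC lists, 13.7 for H2AK119ub1 (chr15:102861562-102862581) and 14.4 for H3K27me3 (chr15:102861600-102862644), on the repeat-rich intron sequence shown above. Away from tracts the highest folds were 12.0 and 11.8.

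Right at the start sites H2AK119ub1 was thinner than around them in wild type NPC. The 9 genes have 13 start sites, and 5 of these bases were under an H2AK119ub1 peak and 10 under an H3K27me3 peak. Within 250 bp of the starts, 48.9% of the bases were under H2AK119ub1, against 70.6% of the span, while H3K27me3 covered 81.9% against 84.8%. At the starts of Hoxc13 and Hoxc12 no base within 250 bp was covered by H2AK119ub1. In wild type ES it was the reverse for H2AK119ub1, with 13.5% near the starts against 4.68% of the span. All of those bases lay at the starts of Hoxc9 (289 and 234 bp) and Hoxc8 (359 bp), in the middle of the cluster. In depleted NPC the shares were 13.8% and 9.43%, and the longest covered lengths near a start were again at Hoxc9 and Hoxc8 (364 and 259 bp).

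The span also holds other genes, mostly annotated as non-coding. Mir196a-2, between Hoxc10 and Hoxc9, makes miR-196a, which is known to act on Hox messages. It was bare in both ES libraries and wholly covered in wild type NPC by both marks. In depleted NPC it was wholly covered by H3K27me3 and had no H2AK119ub1. Mir615, within Hoxc5, was under peaks more widely. H3K27me3 covered 94.6% of it in wild type ES and all of it in the other 3 lists, while H2AK119ub1 covered none of it in wild type ES, 96.7% in depleted ES, all in wild type NPC and 19.6% in depleted NPC. The mature forms from RefSeq are given to show which products these loci make, with the seed (bases 2 to 8) in capitals. None of their 4 seeds is shared.
miR-196a-5p: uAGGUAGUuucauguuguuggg
miR-196a-2-3p: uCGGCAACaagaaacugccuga
miR-615-5p: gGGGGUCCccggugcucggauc
miR-615-3p: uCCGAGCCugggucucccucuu

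Gm16258, which RefSeq lists as Hotair, the long non-coding RNA between Hoxc12 and Hoxc11 on the minus strand, had no peak in ES cells. In wild type NPC 73.8% of it was under H2AK119ub1 and 64.5% under H3K27me3, and in depleted NPC 3.17% and 53.9%. Gm20398 is a 48234 bp transcript on the plus strand that runs from Hoxc10 to Hoxc5, so its values are those of the genes it overlaps. Its H2AK119ub1 coverage was 9.36% in wild type ES, 27.1% in depleted ES, 72.7% in wild type NPC and 12.1% in depleted NPC. Gm17649, a short gene of 106 bp just before Hoxc13 that is annotated as protein-coding, was under H3K27me3 in wild type NPC and under no other list.

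Flag-PCGF5 had no peak in the span in ES cells, where the whole list held 653 peaks, and 5 in NPC, where it held 12013. The 5 peaks covered 3327 bp, 2.76% of the span, at folds of 2.06 to 2.95, and the median fold of the list was 2.22. From the tail end they lay between Hoxc12 and Hoxc11 (chr15:102770025-102770890, fold 2.06), in the intron of Hoxc11 (chr15:102786419-102786847, fold 2.50), after Hoxc11 (chr15:102790065-102790277, fold 2.95), in the intron of Hoxc9 (chr15:102812377-102813600, fold 2.22) and just after Hoxc9 (chr15:102815567-102816161, fold 2.71). None lay in the 53.6 kb that hold Hoxc8, Hoxc6, Hoxc5 and Hoxc4.

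Only the peak in Hoxc11 fell within 2500 bp of a member's start, which makes 1 of 9 promoters against 14.1% of all genes. All 5 overlapped peaks of both marks in wild type NPC. H3K27me3 covered 96.3% and H2AK119ub1 80.6% of the Flag-PCGF5 bases, where these marks covered 84.8% and 70.6% of the span. The Flag-PCGF5 peak in Hoxc9 overlapped a peak of each of the 8 histone lists. In the same library HoxB had 7 peaks, while HoxA and HoxD had 0. Flag chromatin was sonicated and the histone chromatin digested with micrococcal nuclease, so widths and folds are not on 1 scale between the 2 kinds of list.

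As a check on the labelled cell types, promoters of marker genes were read in the histone lists. Sox1 was among the markers chosen but had no start site in the annotation used, so it was not read. Of the genes active in ES cells, Pou5f1 and Nanog held no peak in any list, and Zfp42 held 1, of H3K27me3 in wild type NPC. Esrrb, in contrast, had 3 or 4 H3K27me3 peaks in all 4 kinds of cells, over 8.79% of its windows in wild type ES and 18.2% in wild type NPC. Of the neural genes, Pax6 had H3K27me3 over 17.0% of its windows in wild type ES, 19.7% in depleted ES, 70.0% in wild type NPC and 54.0% in depleted NPC. Nes, which encodes the neural progenitor filament nestin, had 0%, 16.3%, 24.9% and 53.0% in the same order, so that these 2 stood in opposite order between the NPC libraries. H2AK119ub1 covered 41.1% of the Pax6 windows in wild type NPC and 9.03% in depleted NPC, and 0% and 7.03% of the Nes window. T, which marks mesoderm, had 2 or 3 H3K27me3 peaks in all 4 kinds of cells, and the endoderm genes Sox17, Gata4 and Gata6 had 1 to 3, 2 to 9 and 2 to 5. Peak lists give no expression, so these values do not show the cell types directly, and how many of the NPC had taken on a neural fate cannot be told apart from a change of the mark within each cell.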

How the data were processed

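ChIP-seq libraries of mouse ES cells and NPC were 16 in number, 1 per group, and 10 had a peak list. The 6 inputs were not used here. The authors trimmed reads with Trimmomatic, aligned them to mm9 (Bowtie2), dropped duplicate reads (Picard) and made a separate peak list for each library (MACS2, version 2.1.0 per the labels). Each peak in the deposited lists has a fold over background, a score, and its p-value and q-value as −log10, all written by the authors' run of MACS2. The spike-in of the study does not enter them, and no file gives read totals.

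Coordinates were counted from 1. Covered base pairs were the union of peaks, clipped to the span or to the promoter window, and an overlap needed 1 bp. Genes and start sites came from GENCODE M1. Scripts ran in Python 3.11.15 with NumPy 2.4.6 and Matplotlib 3.10.9. Of 3130 covered lengths compared with bedtools 2.31.1, 0 differed, and the code was tested on simulated data. With 1 library per group there was no test. Named items were the 9 members, other genes starting in the span, the nearest coding gene on each side, the widest and highest-fold peak of each list, and every Flag-PCGF5 peak. The tracts, the start-site counts and the sequences shown were added after values were seen. The members and lists were chosen with earlier results of these data known. miRNA sequences are from RefSeq (GRCm38.p6), and both of the miRNA genes of the span matched. The sequence of 1 named peak is not reported here.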

Additional observations from a re-analysis of the deposited data

Results flagged for a closer look

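A set of 3 results, all untested and with 1 library a group, went opposite ways between groups under the same contrast. The H2AK119ub1 covered length of the HoxC span was higher in PCGF5-depleted than in wild type ES cells and lower in NPC, a difference of -4.52 between the log2 ratios (NPC minus ES). Seen the other way, it was higher in NPC than in ES cells in wild type and lower in the PCGF5-depleted line, which is the same difference of -4.52 (PCGF5-depleted minus wild type). The sign in the depleted line did not hold in every setting, since its log2 ratio of -0.61 became 0.076 with the same number of top peaks taken from both lists. The H3K27me3 covered length was also higher in depleted ES cells and lower in depleted NPC, a difference of -1.49, and its NPC part was small, a log2 ratio of -0.26. The H2AK119ub1 sign changes were not particular to HoxC. For H2AK119ub1 in depleted against wild type cells, the HoxA, HoxB and HoxD spans gave 0.28, 1.02 and 0.88 in ES. In NPC they gave -2.07, -2.43 and -2.08. The whole lists gave -0.25 in ES and -1.05 in NPC. For H3K27me3 those spans gave -0.20, -0.18 and 0.29 in ES, and -0.20, -0.31 and -0.15 in NPC.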

How the results depend on the processing

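Of 134 recomputed values for 33 results, 121 stayed within 1.5-fold of the value reported and kept their direction, 12 moved further and 1 reversed. For log2 ratios the 1.5-fold limit applied to the ratio itself, not to its log2 value. The log2 ratio of H2AK119ub1 covered length in PCGF5-depleted NPC against PCGF5-depleted ES went from -0.61 to 0.076 with equal numbers of top peaks. With the higher-scoring 50% of each list, H2AK119ub1 gave -3.73 for PCGF5-depleted against wild type NPC and 4.56 for wild type NPC against ES, H3K27me3 gave 0.53 for depleted against wild type ES and 4.25 for depleted NPC against depleted ES, and 3 Flag-PCGF5 peaks were left in the span. With promoter windows of 1000 bp, H2AK119ub1 reached 3 promoters in wild type ES, was 2-fold higher at 2 in depleted against wild type ES, and lower at 1 and higher at 5 in depleted NPC against depleted ES, while H3K27me3 was lower at 1 in depleted against wild type ES. At 3-fold, H2AK119ub1 was lower at 2 in depleted NPC against depleted ES, and H3K27me3 higher at 2 in depleted against wild type ES. The cause of these shifts was not tested. Leaving out bases near dinucleotide tracts was chosen after seeing the data. Unknown depth and single libraries limit every value. No paired analysis was possible because each group has 1 library.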
